A study of Mus musculus with 18 samples.

Results

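The E protein genes and their Id inhibitors are 6 of the 16545 genes in a table of transcript levels in mouse splenic B cells. They were chosen by name, as the rows of *Tcf3*, *Tcf4* and *Tcf12*, which encode E proteins, and of *Id1*, *Id2* and *Id3*, which encode Id proteins. All 6 were in the table. The table holds 18 RNA-seq libraries of total purified splenic B cells, taken at 0 h, 24 h and 48 h of LPS (D0, D1 and D2 in the labels). At each time there were 3 control (CON) libraries and 3 *Zbtb24* B-CKO (B-CKO) libraries, and each replicate came from 1 mouse. Both genotypes were on a C57BL/6 background and carried 1 copy of a Cre allele that acts throughout the B lineage, with *Zbtb24* +/+ in the control littermates and *Zbtb24* loxp/loxp in the B-CKO mice. Cre removes exon 2 of *Zbtb24*, which holds the translation start. ZBTB24 is a zinc finger protein whose loss in people causes an immunodeficiency with low antibody levels. The purified cells were a mixture of B cell subsets, mainly follicular and marginal zone cells, and the ages of the mice and the LPS dose were not given in the sources used here.

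E proteins are basic helix-loop-helix factors that bind short DNA sites of the form CANNTG (E boxes) as pairs with each other or with related partners. Id proteins have the helix-loop-helix part but lack the basic part that touches DNA, so that an Id protein paired with an E protein keeps it off its sites. In the B lineage the products of *Tcf3* (E12 and E47), *Tcf4* (E2-2) and *Tcf12* (HEB) turn on *Ebf1*, *Foxo1* and *Pax5* and later take part in class switching and plasma cell formation. Of the inhibitors, *Id3* is induced downstream of the B cell receptor through Egr factors and of TGF-beta family receptors, whereas *Id2* is best known for its role in innate lymphoid cells, NK cells and dendritic cells. E12 and E47 arise by splicing of 1 transcript and are not told apart in a value per gene.

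Sequences upstream of an annotated start are shown. Those of *Id2*, *Tcf3* and *Tcf12* were taken because these genes passed the test between 24 h and 48 h in both genotypes. The sequence of *Id3* was taken because it was the most abundant inhibitor. Each is the 250 bases before an annotated RefSeq start (GRCm38.p6), 5′ to 3′ on the strand of the gene, with matches to CANNTG in capitals (a match on the other strand reads the same).
Id2 chr12:25096093-25096342 (minus strand): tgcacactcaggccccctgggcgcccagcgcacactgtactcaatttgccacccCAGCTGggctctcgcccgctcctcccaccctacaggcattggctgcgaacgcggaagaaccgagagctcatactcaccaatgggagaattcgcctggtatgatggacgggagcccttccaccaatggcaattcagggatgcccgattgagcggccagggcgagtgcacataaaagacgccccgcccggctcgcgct
Tcf3 chr10:80433636-80433885 (minus strand): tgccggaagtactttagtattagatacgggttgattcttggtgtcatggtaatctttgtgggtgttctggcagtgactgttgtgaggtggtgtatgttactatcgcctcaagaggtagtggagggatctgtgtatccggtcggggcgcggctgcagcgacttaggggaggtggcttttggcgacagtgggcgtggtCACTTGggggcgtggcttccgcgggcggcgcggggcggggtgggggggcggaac
Tcf12 chr9:72111820-72112069 (minus strand): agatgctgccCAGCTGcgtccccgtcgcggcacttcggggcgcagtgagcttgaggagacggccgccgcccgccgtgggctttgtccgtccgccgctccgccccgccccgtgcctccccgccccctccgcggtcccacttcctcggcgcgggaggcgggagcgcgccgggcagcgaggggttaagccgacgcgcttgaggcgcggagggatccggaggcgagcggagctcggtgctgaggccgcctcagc
Id3 chr4:136143572-136143821 (plus strand): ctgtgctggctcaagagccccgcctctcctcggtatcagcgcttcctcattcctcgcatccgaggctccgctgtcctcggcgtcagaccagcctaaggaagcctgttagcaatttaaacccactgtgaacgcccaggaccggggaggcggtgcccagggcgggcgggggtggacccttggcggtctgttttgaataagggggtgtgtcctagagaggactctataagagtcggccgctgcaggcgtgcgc
The window of *Id2* held 1 match, CAGCTG at position -196 from the start. That of *Tcf3*, which lies within the listed span of the gene, held CACTTG at -54. The promoter table has 3 starts for *Tcf12*. The window shown, of the most upstream of these starts, held CAGCTG at -240 and overlaps the end of the listed gene span. A second (chr9:72111202-72111451), within the span, held CAAGTG at -149, and the other (chr9:71896097-71896346), also within it, held no match. The window of *Id3* held none. A match to CANNTG was present in 66.2% of 32851 RefSeq windows of this length, and CAGCTG in 13%. The Egr sites GCGTGGGCG and GCGGGGGCG, searched on both strands, were in 0.536% and 2.57% of windows and in none of these 6. A match is a description of letters and not a bound site. *Id1* had no entry in the promoter table, and no sequence is shown for *Tcf4*. The table lists *Tcf3* as gene ID 21423 (GRCm38 chr10:80409541-80433976), *Tcf12* as 21406 (chr9:71844252-72111893), *Tcf4* as 21413, *Id1* as 15901 (chr2:152736251-152737410), *Id2* as 15902 (chr12:25093799-25096092) and *Id3* as 15903 (chr4:136143822-136145392).

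The values are FPKM, that is, fragment counts divided by transcript length and by the size of the library, and can be compared between genes of different length. Tests are limma tests of log2(FPKM + 1), with p-values adjusted by the Benjamini-Hochberg method over all genes tested and a threshold of 0.05. Mean *Zbtb24* FPKM (± SD, n = 3) was 12.5 ± 1.90 in B-CKO against 45.4 ± 7.24 in control cells at rest, 10.9 ± 0.677 against 17.6 ± 1.66 on day 1 and 10.4 ± 1.07 against 15.2 ± 1.85 on day 2, and at each time every B-CKO library was below every control library. Its adjusted p was 0.12, 0.0586 and 0.267 at the 3 times, and reads outside exon 2 still count towards this value. The B cell markers summed to at least 2089 FPKM in every library, and 7 of 9 myeloid and dendritic cell markers were under 1 FPKM on average in every group. The exceptions were *Lyz2*, with resting means of 2.08 and 2.29 FPKM in the 2 genotypes, and *Itgam*, at 1.95 to 4.95 FPKM in culture. Replicates varied more at 0 h than in culture, with a median SD of log2(FPKM + 1) of 0.171 in control cells at 0 h and 0.0556 at 24 h. In bulk libraries, fewer cells of a type and less RNA per cell cannot be told apart.

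Splenic B cells held mostly *Tcf3* among the E protein genes and mostly *Id3* among the Id genes, in both genotypes and at all 3 times. Averaged over the 18 libraries, *Tcf3* reached 94.9 FPKM, above 95.1% of the genes in the table, *Id3* was at 48.1 FPKM, *Tcf4* at 25.1 FPKM, *Tcf12* at 24.7 FPKM, *Id2* at 11.5 FPKM and *Id1* at 0.171 FPKM. In resting control cells the order was *Tcf3*, *Id3*, *Tcf12*, *Tcf4*, *Id2* and *Id1*. The ranges of *Id3* and *Tcf12* overlapped there, as did those of *Tcf12* and *Tcf4*, and the other neighbours did not overlap. At 24 h only the ranges of *Tcf12* and *Tcf4* overlapped. At 48 h *Tcf4* was above *Tcf12* and no neighbours overlapped. The same order and the same overlaps were found in B-CKO cells at each time.

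**Figure D1:**
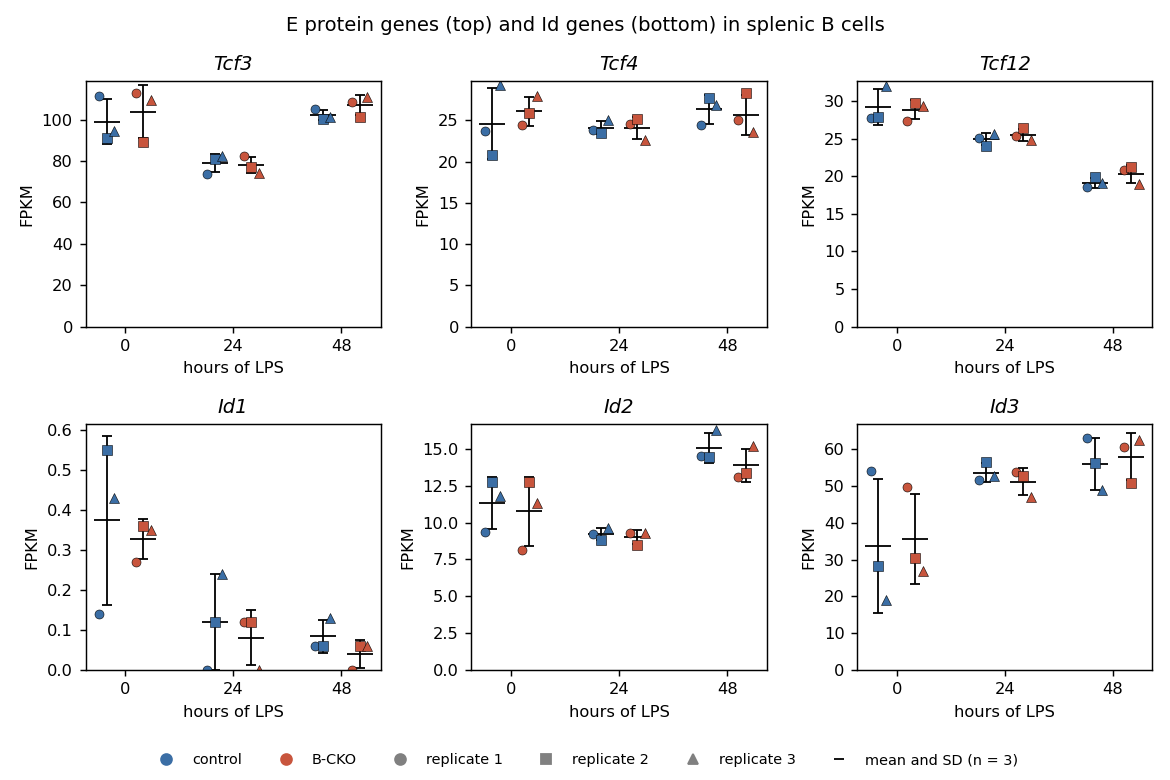
FPKM of the 3 E protein genes (top) and 3 Id genes (bottom) in every library against hours of LPS, with control in blue, B-CKO in red, symbols for replicate numbers, and bars for the mean and SD of 3 libraries. *Tcf3* dipped at 24 h, *Tcf12* was lowest at 48 h, *Id2* was highest at 48 h, and *Id3* was spread from 18.9 to 54.1 FPKM at 0 h.

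The first comparison asked whether B cells without *Zbtb24* hold other levels of these factors. None of the 6 genes passed the test between genotypes at 0 h, 24 h or 48 h, and none had an unadjusted p under 0.05 (with the replicate number as a block, *Id2* at 48 h had 0.0447, and 0.519 after adjustment). Among all genes, 0% passed at 0 h (of 15641 tested), 0.0993% at 24 h (of 15104) and 0.046% at 48 h (of 15210), so that a count of 0 among 6 is near the background. The background depends on the processing. With genes averaging under 1 FPKM left out, 4% passed at 24 h (388 of 9711) and 0.294% at 48 h (29 of 9857), with a pseudocount of 0.1 46 genes passed at 24 h, and in a single fit of the 18 libraries 25 passed at 0 h. No member passed between genotypes under any alternative run, and the lowest adjusted p was 0.385. The control and B-CKO libraries overlapped for all 6 genes at all 3 times, where 3.87%, 20.1% and 11.1% of all genes did not overlap.

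At 24 h and 48 h, where replicates were close, the intervals of the differences were narrow. In replicates 1, 2 and 3 at 24 h, *Tcf3* was at 73.9, 80.9 and 82.2 FPKM in controls and at 82.2, 77.3 and 74.4 FPKM with the deletion. The B-CKO minus control difference was -0.02 on the log2 scale (95% confidence interval -0.14 to 0.11). *Id3*, with FPKM of 51.6, 56.5 and 52.8 in controls against 53.9, 52.8 and 47 in the B-CKO libraries, differed by -0.07 (interval -0.21 to 0.07). For the other members at 24 h, *Tcf4* differed by -0.003 (-0.11 to 0.11), *Tcf12* by 0.03 (-0.05 to 0.12), *Id2* by -0.03 (-0.16 to 0.10) and *Id1* by -0.05 (-0.25 to 0.15), with adjusted p from 0.64 to 1 for the 6 genes.

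At 48 h *Tcf3* differed by 0.06 (-0.04 to 0.17), *Tcf4* by -0.04 (-0.23 to 0.14), *Tcf12* by 0.08 (-0.05 to 0.21), *Id1* by -0.06 (-0.14 to 0.03), *Id2* by -0.11 (-0.29 to 0.07) and *Id3* by 0.05 (-0.21 to 0.31), with adjusted p from 0.778 to 0.93. *Tcf3* was higher in B-CKO cells in 3 of 3 same-numbered pairs at 48 h, and *Id2* was higher in 0 of 3. At 0 h the difference of *Id3* was 0.15 with an interval from -0.82 to 1.13, or 0.565-fold to 2.19-fold. That interval ignores the replicate number, with which the resting libraries of both genotypes moved together, and with the number as a block the difference had an SE of 0.12 in place of 0.40 (adjusted p = 0.918). The other differences at 0 h were 0.07 for *Tcf3* (-0.23 to 0.36), 0.09 for *Tcf4* (-0.24 to 0.42), -0.01 for *Tcf12* (-0.23 to 0.20), -0.04 for *Id1* (-0.31 to 0.23) and -0.08 for *Id2* (-0.54 to 0.39), and the adjusted p was 1 for all 6 (0.918 to 0.981 with the block).

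**Figure D2:**
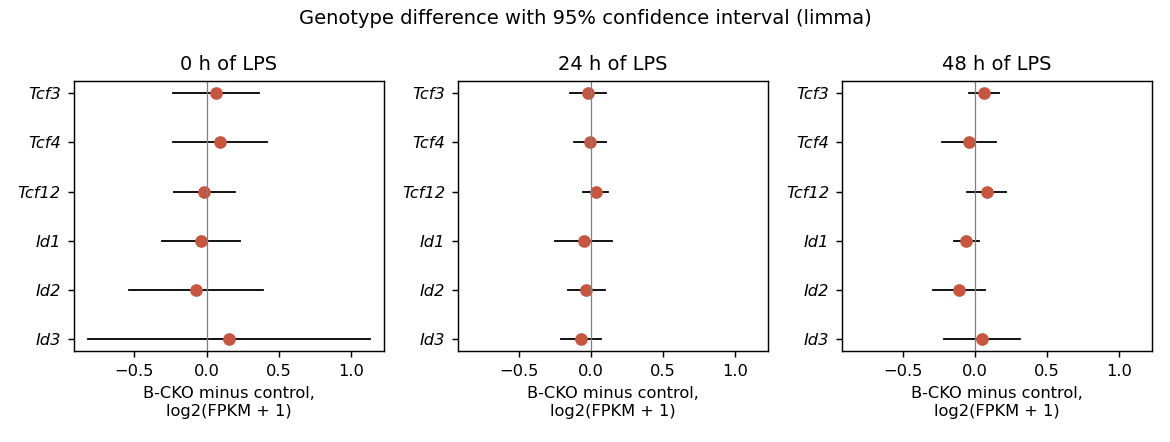
B-CKO minus control difference in log2(FPKM + 1) for each gene and time of LPS (0 h, 24 h, 48 h), with points for the estimate and lines for the 95% confidence interval (limma without the replicate block, 3 against 3 libraries). All intervals cross 0, and the widest is that of *Id3* at 0 h, from -0.82 to 1.13.

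The next comparisons followed each gene through LPS stimulation within a genotype. Of the 6 genes, 2 passed from 0 h to 24 h in control cells, where 57.4% of all genes did, and 3 in B-CKO cells, against 59.8%. From 24 h to 48 h, 3 passed in each genotype, against 44.9% of all genes in control and 45.7% in B-CKO cells. From 0 h to 48 h, 3 passed in each genotype, against 56.8% and 57.6%. These shares are near or below the background, so what follows describes the size and order of the members' changes.

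*Tcf3*, the source of E12 and E47, fell in the first day and returned in the second. Its FPKM in control cells was 111, 91.2 and 94.5 at rest, then 73.9, 80.9 and 82.2, then 105, 100.2 and 102. The B-CKO libraries were at 113, 89.4 and 109.6, then 82.2, 77.3 and 74.4, then 108, 102 and 111 FPKM. In both genotypes all 24 h libraries lay below all libraries of the other times. The fall to 24 h was -0.32 ± 0.09 (log2 change and SE, adjusted p = 0.023) in control and -0.40 ± 0.10 (adjusted p = 0.0117) in B-CKO cells. With the replicate number as a block, the control fall had an adjusted p of 0.0609, while the B-CKO fall stayed past the threshold. The control fall also missed the threshold without the 24 h library of replicate 1 (adjusted p = 0.0844) or of replicate 2 (0.0587), and without both libraries of any 1 replicate number (0.055 to 0.0771). The B-CKO fall missed it without both libraries of replicate 1 (adjusted p = 0.0566) or of replicate 3 (0.123). The rise from 24 h to 48 h was 0.37 ± 0.05 (adjusted p = 0.00085) in control and 0.45 ± 0.05 (adjusted p = 0.000426) in B-CKO cells, a ratio of mean FPKM of 1.29 and 1.37. From 0 h to 48 h the difference was 0.05 in both genotypes (adjusted p = 0.645 in control cells), and it was -0.16 in control and -0.17 in B-CKO cells on the TPM scale, which gives every library the same sum.

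*Tcf12*, which encodes HEB, stepped down at both intervals. In control cells it was at 27.7, 27.9 and 32 FPKM at 0 h, 25.1, 24.1 and 25.7 FPKM at 24 h, and 18.6, 19.9 and 19.1 FPKM at 48 h. The B-CKO libraries were at 27.4, 29.7 and 29.4, then 25.4, 26.5 and 24.9, then 20.8, 21.3 and 19 FPKM. The 3 times did not overlap in either genotype. From 24 h to 48 h it fell by 0.36 on the log2 scale (-0.36 ± 0.04, adjusted p = 0.000545) in control and by 0.32 (-0.32 ± 0.05, adjusted p = 0.00254) in B-CKO cells, and from 0 h to 48 h by 0.58 (-0.58 ± 0.08, adjusted p = 0.000981) and 0.48 (-0.48 ± 0.07, adjusted p = 0.00132). The first step was smaller, at -0.22 ± 0.07 (adjusted p = 0.0468) and -0.17 ± 0.06 (adjusted p = 0.0432). It was not past the threshold with the replicate block, with adjusted p of 0.0708 and 0.0888, nor with each library scaled by its median ratio to a common reference, with 0.127 and 0.189, nor in B-CKO cells among genes of at least 1 FPKM, with 0.0562. In control cells it was also lost without the 0 h library of replicate 2 or any 24 h library (adjusted p from 0.0587 to 0.152), and in B-CKO cells without any library other than the 0 h library of replicate 1 (0.0753 to 0.148).

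*Tcf4*, which encodes E2-2 and is the E protein of plasmacytoid dendritic cells as well as B cells, passed in no comparison. It ranged from 20.8 to 29.3 FPKM over the 18 libraries, and its changes lay between -0.11 (0 h to 24 h in B-CKO cells) and 0.12 (24 h to 48 h in control cells) on the log2 scale. With values rescaled to TPM the 0 h to 24 h change in B-CKO cells was -0.27 with an adjusted p of 0.0183, and without the 48 h library of replicate 1 the 24 h to 48 h change in control cells was 0.17 (adjusted p = 0.0214). *Tcf4* was below *Tcf12* in every library at 0 h and 24 h and above it in every library at 48 h.

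**Figure D3:**
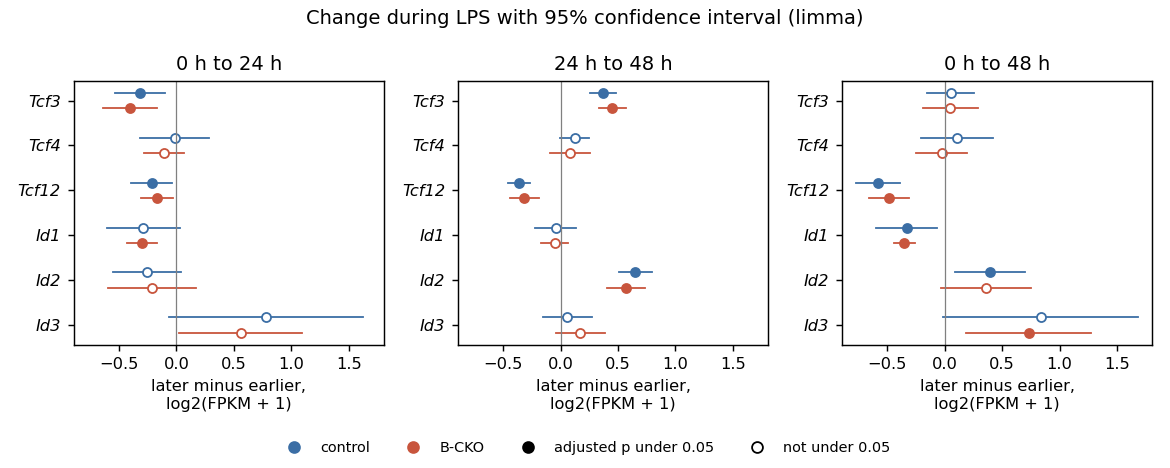
Later minus earlier log2(FPKM + 1) for each gene and interval of LPS, with points for the estimate, lines for the 95% confidence interval (limma, 3 against 3 libraries), filled points for an adjusted p under 0.05, control in blue and B-CKO in red. *Tcf3* and *Id2* rose and *Tcf12* fell from 24 h to 48 h in both genotypes, by 0.37, 0.65 and -0.36 in control cells.

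*Id2* rose between 24 h and 48 h. In control cells it was at 9.33, 12.8 and 11.8 FPKM at 0 h, 9.25, 8.81 and 9.61 FPKM at 24 h, and 14.5, 14.4 and 16.3 FPKM at 48 h. The B-CKO libraries were at 8.15, 12.8 and 11.3, then 9.27, 8.47 and 9.29, then 13.1, 13.4 and 15.2 FPKM. Every 48 h library was above every earlier one of its genotype. The rise from 24 h was 0.65 ± 0.06 (adjusted p = 0.000256) in control and 0.57 ± 0.07 (adjusted p = 0.000686) in B-CKO cells, a ratio of mean FPKM of 1.63 and 1.54. From 0 h to 48 h the change was 0.39 ± 0.13 (adjusted p = 0.0357) in control and 0.36 ± 0.16 (adjusted p = 0.103) in B-CKO cells, and on the TPM scale the control value was 0.21 with an adjusted p of 0.233. The control call was lost without any one of its 48 h libraries (adjusted p from 0.0775 to 0.122), and the B-CKO change passed without the 0 h library of replicate 2 (0.0483). The 0 h to 24 h changes, -0.26 and -0.21, did not pass, with adjusted p of 0.122 and 0.297. Without the 0 h library of replicate 1 they were -0.38 in each genotype and passed (adjusted p = 0.00756 and 0.00968). At 0 h NK cell markers, a cell type that expresses *Id2*, summed to 8.6, 10.04 and 14.7 FPKM in control and 6.31, 10.7 and 17.9 FPKM in B-CKO cells, and at 24 h and 48 h to at most 1.46 FPKM. The replicate 1 libraries had the lowest NK marker sum and the lowest *Id2* of their genotype at 0 h, and the highest sums of T cell, B cell and plasmacytoid dendritic cell markers. The part of these cells in the 0 h values was not tested. The rise from 24 h to 48 h came with all 6 NK markers under 1 FPKM on average at 24 h and 5 of 6 at 48 h. The exception, *Prf1*, which encodes perforin, itself rose in that interval, from 0.423 to 1.10 FPKM in control cells (adjusted p = 0.00173) and from 0.41 to 1.05 FPKM in B-CKO cells (adjusted p = 0.00144), and its bearing on the *Id2* rise was not tested.

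Mean *Id3* at 24 h was 1.59 times its resting mean in control and 1.44 times in B-CKO cells, but the resting libraries were uneven and neither change passed. In control cells it was at 54.1, 28.3 and 18.9 FPKM at 0 h, 51.6, 56.5 and 52.8 FPKM at 24 h, and 63.1, 56.3 and 48.9 FPKM at 48 h. The B-CKO libraries were at 49.7, 30.5 and 26.8, then 53.9, 52.8 and 47, then 60.7, 50.7 and 62.6 FPKM. Replicates 2 and 3 were far lower at 0 h than later, and replicate 1 was not. Between same-numbered libraries the ratio of 24 h to 0 h was 0.955, 1.99 and 2.79 in control and 1.08, 1.73 and 1.76 in B-CKO cells. The log2 change to 24 h was 0.78 ± 0.35 (adjusted p = 0.102) and 0.56 ± 0.22 (adjusted p = 0.0691), and to 48 h 0.84 ± 0.35 (adjusted p = 0.0855) and 0.73 ± 0.23 (adjusted p = 0.0298). With the replicate block the 0 h to 24 h change passed in B-CKO cells (adjusted p = 0.0394) and the 0 h to 48 h change in control cells (adjusted p = 0.0292). Without the replicate 1 library of 0 h the change to 24 h was 1.17 (adjusted p = 0.00262) in control and 0.82 (adjusted p = 0.000727) in B-CKO cells, and the control change to 48 h was 1.23 (adjusted p = 0.00331). The B-CKO call at 48 h was lost on the TPM scale (adjusted p = 0.0746) and without any library other than the 0 h library of replicate 1 (0.0504 to 0.099). From 24 h to 48 h *Id3* differed by 0.06 and 0.17 (adjusted p = 0.654 and 0.164), and the B-CKO value was 0.27 without the 48 h library of replicate 2 (adjusted p = 0.0204).

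The uneven resting *Id3* followed the replicate number in both genotypes. Both replicate 1 libraries (49.7 and 54.1 FPKM) were above the other 4 (18.9 to 30.5 FPKM), with a ratio of means of 1.99. *Egr1*, an immediate early gene upstream of *Id3*, had FPKM of 412 and 239 in the replicate 1 libraries and 69.4 to 154 FPKM in the other 4, with a ratio of means of 2.87. *Egr2* overlapped (10.8 and 23.7 against 4.62 to 11.6 FPKM), and *Egr3* was lower in replicate 1 (65.4 and 92.2 against 92.4 to 127 FPKM). Of the other members *Tcf3* was higher in both replicate 1 libraries, and *Tcf12*, *Id1* and *Id2* were lower. Some marker sums also followed the replicate number at 0 h. T cell markers summed to 34.4, 30.2 and 24.7 FPKM in control and to 31.4, 25.0 and 23.7 FPKM in B-CKO cells. *Lck* made up most of this sum, with resting means of 20.7 and 18 FPKM, and it stayed at 12 FPKM in cultured control cells, where each of the other 8 T cell markers was under 1 FPKM. Plasmacytoid dendritic cell markers, a list with *Irf8* and *Spib* that B cells also express, summed to 658, 619 and 399.6 FPKM and to 646, 585 and 467 FPKM. Both sums had the order of *Id3* in each genotype, whereas the NK marker sum, most of it *Prf1* (resting means of 7.75 and 8.04 FPKM), had the opposite order. Myeloid and dendritic cell markers (7.22, 2.95 and 5.98 FPKM in controls, then 5.06, 4.61 and 9 FPKM with the deletion) and erythroid markers (10.9, 11.9 and 30.2, then 24.8, 9 and 52.8 FPKM) had neither order in both genotypes. B cell markers were highest in replicate 1 too, at 5475 FPKM against 5052 and 4325 FPKM in control and 5262 against 4149.7 and 4354 FPKM in B-CKO cells. The part of other cells in the resting *Id3* was not tested. Among all 15641 genes, 26% had both replicate 1 libraries above the other 4 and 10% below, so that many genes share this pattern at 0 h. The sources used here do not say what a replicate number stands for beyond the mouse, and the part of handling or batch in these values was not tested.

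**Figure D4:**
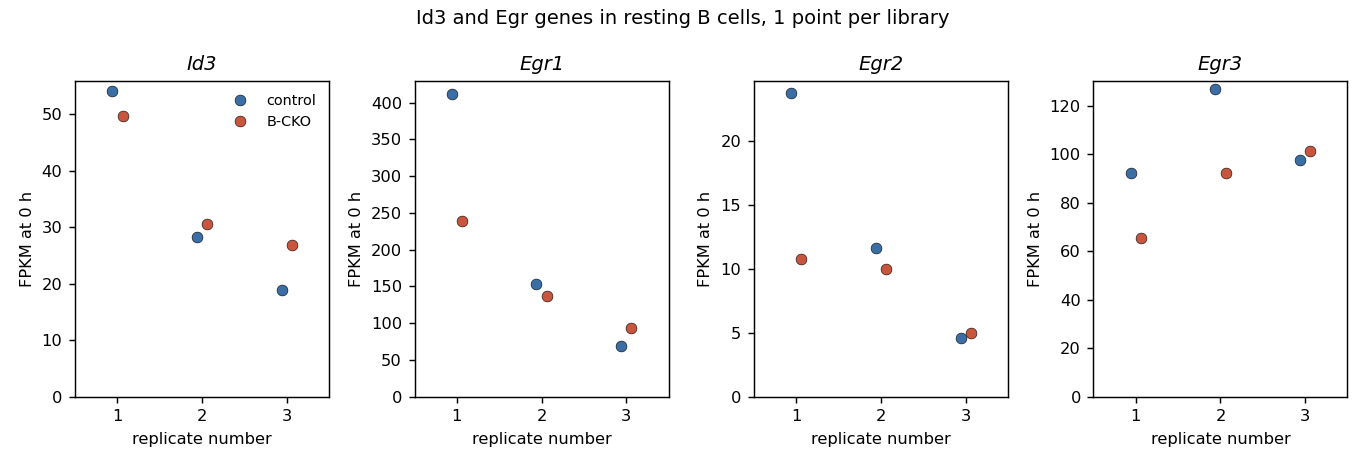
FPKM at 0 h of *Id3*, *Egr1*, *Egr2* and *Egr3* against replicate number, 1 point per library, control in blue and B-CKO in red. *Id3* and *Egr1* are highest in replicate 1 in both genotypes (49.7 and 54.1 FPKM for *Id3*), whereas *Egr3* is lowest there.

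*Id1* was near the limit of the table. In control cells it was at 0.14, 0.55 and 0.43 FPKM at 0 h, listed at 0, 0.12 and 0.24 FPKM at 24 h, and at 0.06, 0.06 and 0.13 FPKM at 48 h. In B-CKO cells it was at 0.27, 0.36 and 0.35, then 0.12, 0.12 and 0, then 0, 0.06 and 0.06 FPKM. It was listed at 0 in 3 of 18 libraries, and the cultured libraries lay below all resting ones in B-CKO cells but overlapped them at 24 h in control cells. The change to 24 h was -0.29 ± 0.13 (adjusted p = 0.107; 0.0215 with the replicate block) in control and -0.30 ± 0.05 (adjusted p = 0.00321) in B-CKO cells, and to 48 h -0.33 ± 0.11 (adjusted p = 0.0403) and -0.35 ± 0.04 (adjusted p = 0.000338). The control change to 24 h passed without the 0 h library of replicate 1 (adjusted p = 0.0159), the control change to 48 h was lost without any library other than that one (0.0742 to 0.112), and from 24 h to 48 h the B-CKO change passed without the 24 h library of replicate 3 (-0.11, adjusted p = 0.0464). A pseudocount of 1 compresses such low values, and with 0.1 the changes to 48 h were -1.27 and -1.63.

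Whether the LPS response itself differed by genotype was tested as an interaction over 12 libraries. No member passed for any of the 3 intervals, in each of which 0% of all genes passed, and no member had an unadjusted p under 0.05. The differences between genotypes in the change ranged from -0.22 to 0.05 on the log2 scale for 0 h to 24 h, from -0.08 to 0.12 for 24 h to 48 h, and from -0.13 to 0.10 for 0 h to 48 h. The intervals from 24 h to 48 h stayed between -0.29 and 0.42 for all 6 genes. Those that include 0 h reached from -1.23 to 0.92, both ends set by *Id3*.

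Summed over each family, transcripts of E protein genes outweighed those of Id genes in every library, and less so after LPS. The E protein sum divided by the Id sum in control cells was 2.56, 3.36 and 5 at rest, then 2.02, 1.96 and 2.12 on day 1, then 1.91, 2.09 and 2.26 on day 2. In B-CKO cells it was 2.83, 3.32 and 4.34, then 2.09, 2.1 and 2.17, then 2.09, 2.36 and 1.97. All 6 resting libraries were above all 12 cultured ones. The Id sum went from 45.5 ± 16.5 to 63 ± 2.27 and 71.3 ± 6.18 FPKM in control cells, whereas the E protein sum went from 153 ± 11.7 to 128 ± 5.02 and back to 148 ± 0.345 FPKM. *Tcf3* made up 60% to 72.3% of the E protein sum and *Id3* 60.7% to 86.3% of the Id sum. The ratio therefore depends mostly on these 2 genes, but not on them alone. In control cells its mean was 2.03 at 24 h and 2.08 at 48 h, while *Tcf3* rose by 0.37 and *Id3* differed by 0.06 on the log2 scale. Without *Tcf3* and *Id3* the ratio was 4.70, 5.25 and 3.01 at the 3 times in control and 5.10, 5.48 and 3.33 in B-CKO cells, lowest at 48 h. The share of *Tcf12* in the E protein sum in control cells went from 19.2% ± 1.88 to 19.5% ± 0.868 and then 13% ± 0.455. These are ratios of transcripts and not of proteins, and no test was made of them.

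**Figure D5:**
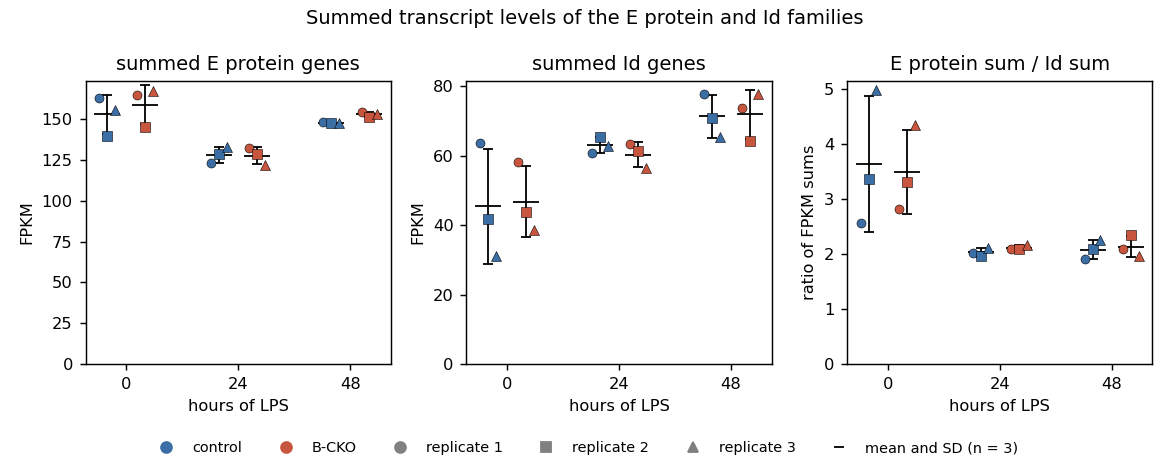
Summed FPKM of the 3 E protein genes (left), of the 3 Id genes (middle) and their ratio (right) in every library against hours of LPS, with control in blue, B-CKO in red, and bars for the mean and SD of 3 libraries. The ratio lies between 2.56 and 5 at 0 h and between 1.91 and 2.36 in culture.

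The genes whose pattern over the 18 libraries was most like that of a member were taken by Pearson's r of log2(FPKM + 1) among the 7930 genes whose mean reached 5 FPKM. For *Tcf3* these were *Atp13a2*, *S1pr4* and *Eif4e3* (r = 0.949, 0.94 and 0.938), whose r is a description with no test. *S1pr4*, a receptor for sphingosine 1-phosphate, went from 36.4 to 14.2 and 37.2 FPKM on average in control cells. For *Tcf12* they were *Ubr1*, *Cdk11b* and *Tasor2* (r = 0.979, 0.973 and 0.971). For *Id2* they were *Sub1*, *Cenpa* and *Vegfa* (r = 0.92, 0.92 and 0.914), and *Cenpa*, the centromere histone, went from 51.4 to 20.9 and 103 FPKM. For *Id3* they were *Tvp23b*, *Rnf5* and *Tspyl3* (r = 0.965, 0.961 and 0.96). For *Tcf4* the highest were *Tmem170b*, *Rab14* and *Depdc5* (r = 0.739, 0.738 and 0.734). These correlations describe libraries that share 6 mice and 3 times.

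Around these genes, the DNA-binding partners and cofactors of E proteins mostly fell in the first day. Over all genes, 26.7% rose and 30.7% fell from 0 h to 24 h in control cells (27.5% and 32.3% in B-CKO cells), and 20.1% rose and 24.8% fell from 24 h to 48 h (21.7% and 24%). Of 11 tested in control cells 7 fell and 1 rose, with a median log2 change of -0.79 against -0.02 over all genes, and of 10 tested in B-CKO cells 7 fell. The acetyltransferase *Ep300* changed by -1.08 (adjusted p = 2.05e-05), the corepressor *Cbfa2t3* by -1.60 (adjusted p = 0.000155), the acetyltransferase *Crebbp* by -1.28 (adjusted p = 0.00023) and the adaptor *Ldb1* by -0.79 (adjusted p = 0.000338) in control cells. From 24 h to 48 h 3 of 10 rose and 2 fell in control cells. *Bhlha15*, the plasma cell helix-loop-helix factor MIST1, rose by 2.20 (adjusted p = 0.000456) from 1.37 to 10.1 FPKM, and *Cbfa2t3* rose by 0.75 (adjusted p = 0.000475). *Crebbp* changed by a further -0.42 (adjusted p = 0.00115), and *Lyl1*, a helix-loop-helix partner of E proteins, rose by 0.20 (adjusted p = 0.00322). *Tal1* and *Msc*, partners of other lineages that were named after their values were seen, were under 0.02 FPKM on average in every group.

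Of 13 target genes of E proteins, 4 rose and 5 fell from 0 h to 24 h in each genotype, near the shares over all genes (26.7% and 30.7% in control cells), and 6 rose and 2 fell from 24 h to 48 h (20.1% and 24.8%). *Mef2b* rose by 3.36 (adjusted p = 3.05e-05), whereas *Cd79a*, a chain of the B cell receptor, changed by -1.50 (adjusted p = 5.16e-05) and *Ebf1* by -1.20 (adjusted p = 8.74e-05) in the first day in control cells. *Rag1* changed by -0.25 (adjusted p = 0.00041). In the second day *Cdkn1a*, a cell cycle inhibitor, rose by 0.97 (adjusted p = 0.000101), while *Pax5* changed by -0.59 (adjusted p = 0.000242) and *Ebf1* by -0.26 (adjusted p = 0.000857). Of the other targets that rose, *Xbp1* and *Prdm1*, plasma cell factors named after their values were seen, did so by 1.07 (adjusted p = 0.00286) and 1.10 (adjusted p = 0.00701). None of these targets passed between genotypes at any time in the fit of all genes. The 48 h fit tested only 12 of them, whereas both earlier fits tested all 13.

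Genes upstream of the Id genes mostly fell in the first day, in which *Id3* had log2 changes of 0.78 and 0.56 that did not pass. Of 15 Egr factors, BMP and TGF-beta receptors and Smads, 11 fell and 1 rose in control cells and 12 fell and 1 rose in B-CKO cells, with medians of -0.73 and -0.64. Of all genes 30.7% fell and 26.7% rose in control and 32.3% and 27.5% in B-CKO cells, with a median of -0.02 in each. *Egr3* changed by -3.35 (adjusted p = 8.65e-06), the inhibitory Smad *Smad7* by -3.17 (adjusted p = 0.000654), the receptors *Tgfbr2* by -1.22 (adjusted p = 1.77e-05) and *Tgfbr1* by -0.89 (adjusted p = 0.00044) in control cells. *Egr1* went from 212 ± 179 to 19.7 ± 3.42 FPKM. From 24 h to 48 h 3 rose and 5 fell in control cells and 4 rose and 4 fell in B-CKO cells. The shares over all genes were near these, at 20.1% rising and 24.8% falling in control and 21.7% and 24% in B-CKO cells. *Smad3*, a signal transducer of TGF-beta, rose by 0.67 (adjusted p = 0.000943) in control cells, whereas *Smad2*, another TGF-beta transducer, changed by -0.42 (adjusted p = 0.00131), the BMP transducer *Smad5* by -0.51 (adjusted p = 0.00167) and *Tgfbr1* by -0.37 (adjusted p = 0.00291).

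Among genes for the turnover of E and Id proteins, 4 of 5 rose in the first day in each genotype. The share of all genes that rose was 26.7% in control and 27.5% in B-CKO cells. *Usp1*, a deubiquitinase that stabilizes Id proteins, rose by 1.34 (adjusted p = 2.93e-05) from 26.2 to 67.5 FPKM, *Skp2*, a ubiquitin ligase subunit, by 1.60 (adjusted p = 0.000385), *Stub1*, another ubiquitin ligase, by 0.89 (adjusted p = 0.00226) and *Fzr1*, an activator of the anaphase-promoting complex, by 0.62 (adjusted p = 0.00326) in control cells. *Wdr48*, the partner of USP1, was named after its value was seen and had a difference of -0.11 (adjusted p = 0.179). In the second day *Fzr1* rose by a further 0.78 (adjusted p = 6.47e-05) and *Stub1* changed by -0.40 (adjusted p = 0.000161). No gene of these 4 lists passed the limma test between genotypes at any time, and the number with an unadjusted p under 0.05 was 0 of 44 in resting cells, 13 of 43 on day 1 and 8 of 41 on day 2. Over all genes it was 313 of 15641, 2463 of 15104 and 1172 of 15210. With genes averaging under 1 FPKM left out, 3 of 34 list genes passed at 24 h, *Cd79a* and *Mef2b* among them (B-CKO minus control differences of -0.15 and -0.33), and 2 of 33 at 48 h, *Egr3* among them (-0.44), and with a pseudocount of 0.1 *Mef2b* passed at 24 h. These genes were named after their values were seen.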

How the data were processed

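The samples were 18 RNA-seq libraries of purified spleen B cells, from 3 mice of each genotype, before LPS and after 24 h and 48 h with it. The authors mapped reads to mm10 with bowtie2 and deposited FPKM with 2 decimals, made with Cufflinks and RSEM, and their own test was DESeq2. BWA is also named in the submitters' processing notes. The strand of counting and read totals are not given in the sources used here, and summed FPKM ranged from 453150 to 563456 per library. Because FPKM are not counts, log2(FPKM + 1) was tested with limma 3.58.1 (lmFit, eBayes with trend) in R 4.3.3, in separate fits for each comparison without genes at 0 in all its libraries, with Benjamini-Hochberg adjustment over all genes tested and a threshold of 0.05. The interaction used 12 libraries. Groups came from the sample titles. Of the gene IDs, 16512 of 16545 matched a RefSeq symbol. Promoters are from RefSeq GRCm38.p6, with 6 windows for 4 of the 6 members. Python 3.11.15 (pandas 2.3.3, numpy 2.4.6) was used for tables and matplotlib 3.10.9 for plots. The fits were tested on simulated data.

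Each replicate was 1 mouse, so same-numbered libraries of a genotype were taken as 1 mouse over time, although their deviations from the group means correlated weakly (-0.09 to 0.19). At 0 h same-numbered control and B-CKO libraries also deviated together (0.85, 0.47 and 0.79), and in culture they did not in every pair. Tests were run without the replicate block, since the study describes none, and the blocked value is given where it changed a call. Alternatives were a pseudocount of 0.1, a mean of at least 1 FPKM, the replicate block, TPM, median-ratio scaling, 1 joint fit of the 18 libraries and leaving out each library. Leaving out both libraries of a replicate number was added after seeing the data.

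The 6 members, the lists of partners, targets, upstream signals and turnover genes, the cell type markers and the tests were chosen with earlier results of these data known. From each list up to 4 genes are named per comparison, in order of adjusted p among those that passed, and some genes counted in the lists are not reported here by name.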

Additional observations from a re-analysis of the deposited data

How the results depend on the processing

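Calls were followed as values of 1 called gene under 1 alternative, with 15 alternatives per gene (14 for *Id1*) that share libraries. The 3 calls from 24 h to 48 h (*Tcf3*, *Tcf12* and *Id2*) held in 45 of 45 such values in control and 45 of 45 in B-CKO cells. Calls that involve 0 h were less firm. Those from 0 h to 24 h held in 15 of 30 values in control and 31 of 44 in B-CKO cells, and those from 0 h to 48 h in 30 of 44 and 36 of 44. No called change reversed. The number of members called from 0 h to 24 h in control cells, 2 as reported, was 1 with median-ratio scaling, 1 with the replicate block and 4 in the single fit. With 1 library or replicate number left out it ranged from 0 to 5, from 1 to 4 for 0 h to 48 h in control cells, and from 1 to 5 for 0 h to 24 h in B-CKO cells. With the replicate block neither reported control call from 0 h to 24 h held (limma adjusted p = 0.0609 for *Tcf3* and 0.0708 for *Tcf12*). The gene that passed there was *Id1* (0.0215). The block changed no genotype call. Over all genes, genotype calls at 24 h numbered 15 as reported, 388 with the filter at 1 FPKM and 5 with the block. The filter at 1 FPKM leaves *Id1* untested. The E to Id ratio without *Tcf3* and *Id3* was 5.25 and 3.01 in control cells at 24 h and 48 h, and 5.10, 5.48 and 3.33 in B-CKO cells at 0 h, 24 h and 48 h, because those genes make up most of each sum.

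Some differences that did not pass changed sign. With median-ratio scaling the genotype difference at 24 h was 0.0032 for *Tcf3* and 0.018 for *Tcf4*, and the *Tcf4* change was 0.014 from 0 h to 24 h in control and 0.018 from 0 h to 48 h in B-CKO cells. On the TPM scale the 0 h to 48 h change of *Tcf3* was -0.16 in control and -0.17 in B-CKO cells, and that of *Tcf4* -0.10 in control cells. With 1 library or replicate number left out, the genotype difference at 0 h ranged from -0.0072 to 0.17 (*Tcf3*), -0.18 to 0.55 (*Id3*), -0.067 to 0.051 (*Tcf12*), -0.016 to 0.22 (*Tcf4*), -0.20 to 0.094 (*Id2*) and -0.17 to 0.055 (*Id1*). At 24 h it ranged from -0.10 to 0.044 (*Tcf3*), -0.015 to 0.072 (*Tcf12*), -0.050 to 0.066 (*Tcf4*), -0.060 to 0.0087 (*Id2*) and -0.16 to 0.082 (*Id1*), and at 48 h from -0.10 to 0.15 (*Id3*) and -0.11 to 0.029 (*Tcf4*). The change in control cells ranged from -0.12 to 0.11 (*Tcf4*, 0 h to 24 h), -0.056 to 0.15 (*Id3*, 24 h to 48 h), -0.12 to 0.033 (*Id1*, 24 h to 48 h), -0.0048 to 0.14 (*Tcf3*, 0 h to 48 h) and -0.039 to 0.24 (*Tcf4*, 0 h to 48 h). In B-CKO cells it ranged from -0.12 to 0.0023 (*Id1*, 24 h to 48 h), -0.056 to 0.11 (*Tcf3*, 0 h to 48 h) and -0.10 to 0.078 (*Tcf4*, 0 h to 48 h). The cause of these shifts was not tested.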
